A study of Mus musculus with 15 samples.

Results

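This account sets EGFR-positive, PDGFRβ-negative cells of a mouse neural stem cell niche, named GCEPB-, against astrocytes of the cortex, named CTX. The 6 libraries were taken by their column labels, 3 per population, from the 15 libraries of 5 sorted populations in the series. GCEPB- cells came from the ventricular-subventricular zone (V-SVZ), the germinal layer beside the lateral ventricles, and were sorted as positive for GFP, CD133 and EGFR and negative for PDGFRβ and CD24. CTX cells were cortical astrocytes sorted as GFP-positive, with no further surface marker given. The other V-SVZ populations, named beside some results, carried PDGFRβ: GCEPB+ cells were also positive for CD133 and EGFR, GCPB+ cells for CD133 alone, and GPB+ cells for neither, all without CD24. Every animal carried the hGFAP::GFP transgene, in which a human GFAP promoter drives GFP, so both populations were bounded by the activity of that promoter and not by endogenous Gfap. Males and females were pooled. Separate animals or sorts per replicate are not stated in the labels, so the tests take in only the spread between libraries, which may be technical. The labels give no age. The populations differ in brain region as well as in surface markers, and the effects of region and of cell state cannot be told apart in this comparison. In sorted bulk samples, fewer cells of a type and less RNA per cell cannot be told apart either.

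Adult neural stem cells of the V-SVZ are a kind of astrocyte: at rest they share glial genes with astrocytes of the brain parenchyma, and on activation they carry EGFR, enter the cell cycle and give rise to transit-amplifying progenitors. These progenitors use transcription factors such as those of the Dlx family, and their progeny migrate to the olfactory bulb as neuroblasts. Cortical astrocytes are largely postmitotic and specialize in clearing transmitters, buffering potassium and supplying metabolites to neurons.

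Total counts were 19081074, 12466038 and 21871223 in GCEPB- replicates 1, 2 and 3, and 15908173, 13802947 and 24985372 in CTX replicates 1, 2 and 3. Levels below are CPM, counts set against the TMM-normalized library size, as replicates 1, 2 and 3 in that order, or as mean ± SD over n = 3 libraries. Changes below are log2 fold changes of GCEPB- over CTX, with ± SE, and a gene is called higher or lower at an adjusted p under 0.05 in edgeR's quasi-likelihood test. Over the genes tested, log2 CPM correlated at 0.952 to 0.965 between GCEPB- replicates, at 0.964 to 0.967 between CTX replicates and at 0.712 to 0.743 between the populations.

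Egfr, Aldoc and Mki67 parted the populations. Of 2 other surface markers, the gene of CD133 did not part them. No CD133 gate is given for CTX, so this cannot show whether that gene follows the sort. The gene of CD24 was higher in GCEPB-, although those cells were sorted as CD24-negative. Egfr, the receptor used in the sort, measured 773, 852 and 765 CPM in GCEPB-, against 169.8, 172 and 163 CPM in CTX (log2 fold change 2.24 ± 0.22). Aldoc, the glial aldolase, measured 83.3, 135 and 112 CPM in GCEPB- and 11882, 7581 and 7113 CPM in CTX. Mki67, a nuclear protein of cycling cells, measured 836, 569 and 629 CPM in GCEPB- and 0.286, 0.768 and 0.168 CPM in CTX. The groups did not overlap for any of these 3 genes. Such separation was common, with 32.2% of all genes tested higher and 31.7% lower in GCEPB- without overlap. Pdgfrb, whose product was selected against in GCEPB-, measured 2.37 ± 1.06 CPM there and 183 ± 53.3 CPM in CTX. Prom1, which encodes CD133, measured 40.4, 51.9 and 54.1 CPM in GCEPB- and 77.3, 49.6 and 41.2 CPM in CTX, with overlapping groups and no call (adjusted p = 0.592). Gfap measured 7.20, 11.8 and 14.0 CPM in GCEPB-, all below the 47.2, 48.0 and 20.9 CPM in CTX (-1.81 ± 0.41, adjusted p = 0.0015). Cd24a, which encodes the CD24 that GCEPB- cells were sorted to lack on their surface, had 96.7, 64.1 and 64.2 CPM in GCEPB- and 3 counts over the 3 CTX libraries, a ratio of 1290-fold (95% counting interval 440 to 6250). Its transcript level thus goes against the CD24-negative gate, and what it reflects was not tested.

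**Figure D1:**
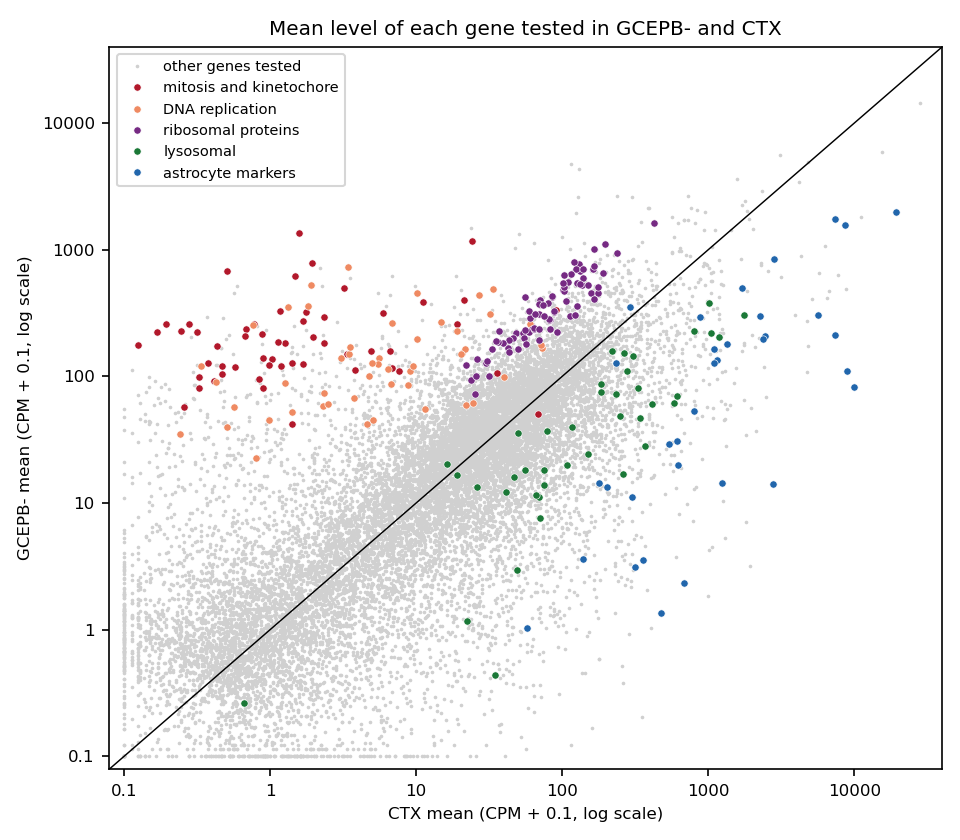
Mean level of each of the 16302 genes tested in GCEPB- (vertical axis) and in CTX (horizontal axis), in CPM + 0.1 on log scales, n = 3 libraries each, with the line of equal level. Mitosis and replication genes lie above the line at low CTX levels, ribosomal proteins lie above it as a compact band, and lysosomal genes and astrocyte markers lie below it, apart from the few members given in the text.

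Of 16302 genes tested, 4093 were higher in GCEPB- (25.1%) and 4268 were lower (26.2%), together 51.3%. Of these, 3161 were higher and 3585 were lower by more than 2-fold (19.4% and 22.0%). The split depends on the scaling: with library totals alone, 5413 genes were higher and 3368 lower, and the median log2 fold change of all genes was 0.37 in place of 0.02. The authors' FPKM values (set against transcript length and depth), tested as log2(FPKM + 1), gave 5192 higher and 3559 lower with a median of 0.21. No gene changed the direction of its call with library totals alone, while 1 did with log2(FPKM + 1) and 1 with log2(FPKM + 0.1). Counts for the lists below should be read against 25.1% higher and 26.2% lower among all genes tested.

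The 12 largest rises, ranked by fitted fold change, were mostly genes of dividing cells. Exo1, an exonuclease of mismatch repair, measured 54.2, 48.3 and 63.0 CPM in GCEPB- and had no count in any CTX library, which makes it at least 955-fold higher against a floor of 3 counts over the CTX group (0.0590 CPM). Against that floor, Dlx2, a homeobox factor of the GABAergic lineage, was at least 771-fold higher. Grb10, an imprinted adaptor of insulin and IGF receptors, was at least 658-fold higher. Aunip, a partner of Aurora A at spindle poles, was at least 357-fold higher. Dlx2 levels were uneven among the GCEPB- libraries, at 57.2, 58.3 and 26.9 CPM, with replicate 3 the lowest. The spindle checkpoint kinase gene Bub1 had 1 count in CTX and a ratio of 9290-fold (95% counting interval 1670 to 367000). Helt, a repressor of the bHLH family, had 105, 94.9 and 136 CPM in GCEPB- and 1 count in CTX. Next in order were Depdc1a, Bub1b, Cdk1, the centromere protector Sgol1, Mki67 and the cohesin acetyltransferase Esco2. Cdk1, the kinase that drives entry into mitosis (mm10 chromosome 10, 69336635 to 69352912), measured 251, 210.3 and 317 CPM in GCEPB- and 0, 0.154 and 0.126 CPM in CTX.

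Entry into the cell cycle runs through the D cyclins and their kinases, which release E2F factors from Rb proteins. Among 25 genes of this list, 15 were higher in GCEPB- and 2 lower (median log2 fold change 2.16). Ccnd2, the cyclin of the D family highest in GCEPB-, measured 4418, 3930.1 and 4611 CPM in GCEPB- and 145, 124 and 121 CPM in CTX (5.05 ± 0.21, adjusted p = 5.02e-11). The other D cyclins were not called. Ccnd1 measured 71.9 ± 9.22 CPM in GCEPB- and 50.1 ± 11.8 CPM in CTX (adjusted p = 0.277), and Ccnd3 measured 34.8 ± 4.40 CPM in GCEPB- and 54.3 ± 14.0 CPM in CTX (adjusted p = 0.0732). Per length of transcript, Ccnd2 stood at 652 ± 40.1 FPKM and Ccnd1 at 20.7 ± 2.97 FPKM in GCEPB-, against 21.8 ± 3.88 and 11.3 ± 3.30 FPKM in CTX, and Ccnd1 passed the test in 1 of the 3 fits on FPKM values (limma adjusted p = 0.0255 on log2(FPKM + 1)). The kinase genes rose together with Ccnd2: Cdk6 measured 692, 677 and 790.3 CPM in GCEPB- and 2.15, 2.23 and 1.93 CPM in CTX, and Cdk4 rose by 3.37 ± 0.18. Among the E2F factors, E2f7 and E2f8, repressors that act late in S phase, rose by 6.85 and 8.61, and E2f2 by 5.51. E2f1 measured 23.0 ± 7.56 CPM in GCEPB- and 17.4 ± 2.16 CPM in CTX and was not called (adjusted p = 0.409). Of the pocket proteins, Rbl1 rose (5.28 ± 0.66), Rb1 itself fell (-1.03 ± 0.19) and Rbl2 was not called (adjusted p = 0.188). The other fall in the list was of E2f5 (-0.79 ± 0.26), a call lost with library totals alone (adjusted p = 0.16) and without GCEPB- replicate 2 or CTX replicate 3 (adjusted p = 0.0786 and 0.0854).

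All 50 genes of DNA replication and nucleotide supply were higher in GCEPB-, with a median log2 fold change of 4.48. Cdc6, which loads the helicase onto origins, measured 129, 113 and 118 CPM in GCEPB- and 0, 0.537 and 0.168 CPM in CTX (9.05 ± 0.74). Mcm5 and Mcm6, subunits of that helicase, rose by 8.65 and 8.23. Pcna, the sliding clamp, measured 486 ± 31.8 CPM in GCEPB- and 33.7 ± 8.86 CPM in CTX. Rrm2, which makes deoxynucleotides, measured 733, 634 and 814 CPM in GCEPB- and 2.93, 3.84 and 3.14 CPM in CTX. Uhrf1, which brings the maintenance methyltransferase to replicated DNA, rose by 8.11 ± 0.34. The smallest change in the list was that of Pola2, at 167 ± 22.8 CPM in GCEPB- and 72.4 ± 20.6 CPM in CTX (1.20 ± 0.25).

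Among 55 mitosis and kinetochore genes, 54 were higher in GCEPB- and none was lower, with a median of 7.46. Their summed level was 11767 to 15771 CPM per GCEPB- library and 339.9 to 353 CPM per CTX library. Top2a, the topoisomerase that untangles sister chromatids, measured 1378, 1129 and 1561 CPM in GCEPB- and 1.57, 2.53 and 0.335 CPM in CTX (9.95 ± 0.61). The cyclin gene Ccnb1 measured 607, 463 and 780.1 CPM in GCEPB- and 0.572, 3.15 and 0.419 CPM in CTX. The kinetochore gene Ndc80 rose by 8.60 ± 0.71, the kinase gene Aurkb by 10.80 ± 1.01 and the spindle motor gene Kif11 by 6.77 ± 0.49. The member without a call was Fzr1, an activator of the anaphase-promoting complex in G1 and in resting cells, at 50.8 ± 14.3 CPM in GCEPB- and 68.6 ± 17.0 CPM in CTX (adjusted p = 0.285).

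Promoters of replication and mitosis genes are shown because both lists moved as near-complete sets and because the motifs found in them differ, with 2 connexin promoters from the opposite side of the comparison. The windows run from 250 bases before to 50 bases after the start in the RefSeq annotation (build GRCm38.p6), and capitals mark matches to the motifs searched on both strands: TTTCCCGC or TTTGGCGC (E2F), TTTGAA (the CHR element of G2 and M genes) and CCAAT (the NF-Y box). The first pair belongs to replication genes, Cdc6 (chr11:98907901-98908200, plus strand) and Mcm2 (chr6:88898731-88899030, minus strand). The second pair belongs to mitosis genes, Mki67 (chr7:135716330-135716629, minus strand) and Ccnb1 (chr13:100786437-100786736, minus strand). The third pair belongs to the astrocyte connexins Gja1 (chr10:56377050-56377349, plus strand) and Gjb6 (chr14:57133562-57133861, minus strand).
Cdc6: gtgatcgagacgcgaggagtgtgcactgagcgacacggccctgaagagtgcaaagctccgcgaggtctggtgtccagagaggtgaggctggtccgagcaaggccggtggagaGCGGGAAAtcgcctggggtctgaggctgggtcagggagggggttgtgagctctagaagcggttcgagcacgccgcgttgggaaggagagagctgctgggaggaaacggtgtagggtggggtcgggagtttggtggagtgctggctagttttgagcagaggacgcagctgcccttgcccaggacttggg
Mcm2: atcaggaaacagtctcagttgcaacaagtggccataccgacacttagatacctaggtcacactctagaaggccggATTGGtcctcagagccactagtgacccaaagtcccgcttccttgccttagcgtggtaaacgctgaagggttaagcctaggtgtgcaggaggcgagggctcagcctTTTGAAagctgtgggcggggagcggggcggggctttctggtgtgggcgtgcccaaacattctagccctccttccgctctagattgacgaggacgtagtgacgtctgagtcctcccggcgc
Mki67: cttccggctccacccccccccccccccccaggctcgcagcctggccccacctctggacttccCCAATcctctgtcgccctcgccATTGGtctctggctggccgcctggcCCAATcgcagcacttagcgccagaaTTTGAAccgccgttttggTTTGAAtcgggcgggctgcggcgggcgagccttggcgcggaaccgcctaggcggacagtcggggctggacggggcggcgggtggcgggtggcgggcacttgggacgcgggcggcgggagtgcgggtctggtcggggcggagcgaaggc
Ccnb1: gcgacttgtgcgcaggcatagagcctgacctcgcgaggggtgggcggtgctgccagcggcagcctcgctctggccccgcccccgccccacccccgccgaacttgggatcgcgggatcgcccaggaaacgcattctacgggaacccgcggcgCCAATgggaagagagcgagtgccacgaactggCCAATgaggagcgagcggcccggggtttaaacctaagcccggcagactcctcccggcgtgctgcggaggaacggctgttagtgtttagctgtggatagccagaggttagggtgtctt
Gja1: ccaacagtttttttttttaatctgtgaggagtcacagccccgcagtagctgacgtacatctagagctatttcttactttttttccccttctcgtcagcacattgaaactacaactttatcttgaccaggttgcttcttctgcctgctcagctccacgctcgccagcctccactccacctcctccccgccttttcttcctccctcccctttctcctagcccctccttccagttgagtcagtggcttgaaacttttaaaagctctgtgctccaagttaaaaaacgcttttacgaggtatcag
Gjb6: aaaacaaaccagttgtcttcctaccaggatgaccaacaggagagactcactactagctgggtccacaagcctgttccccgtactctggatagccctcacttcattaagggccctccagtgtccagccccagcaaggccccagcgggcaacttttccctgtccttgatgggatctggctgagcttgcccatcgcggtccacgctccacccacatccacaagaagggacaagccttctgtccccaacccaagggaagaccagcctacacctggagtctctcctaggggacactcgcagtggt

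The Cdc6 window held 1 E2F match, and the Mki67 window held 2 CHR and 3 CCAAT matches. The Mcm2 window held 1 CHR and 1 CCAAT match, and the Ccnb1 window 2 CCAAT matches. These letters occurred in neither connexin window. Over the 14 promoters matched for the astrocyte coupling, water and ion list, TTTGAA lay in 2 (14.3%), the E2F letters in 1 (7.14%) and CCAAT in 5 (35.7%), so the pair does not stand for its list. Over whole lists, TTTGAA lay in 37 of 49 promoters of mitosis genes (75.5%, 45 genes matched by symbol), in 9 of 50 of replication genes (18%), in 11.9% of the 14093 promoters of genes tested and in 17.9% of all 32851 promoters. Median GC content was 61% in mitosis promoters, 61.3% in replication promoters, 60.3% over genes tested and 52.7% over all. The E2F letters lay in 13 of 50 replication promoters (26%), in 4 of 49 mitosis promoters (8.16%), in 2.71% over genes tested and in 1.56% of all. CCAAT together with TTTGAA lay in 61.2% of mitosis promoters, 8% of replication promoters and 6.95% of all. Across the comparison, the E2F letters lay in 4.6% of 3757 promoters of genes called higher in GCEPB-, 1.54% of 4144 of genes called lower and 2.34% of 6192 of genes not called. A match is a run of letters and says nothing of binding, and genes missing from the promoter table were left out of these shares.

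The brakes on the cell cycle were not uniformly low. Of 18 CDK inhibitor and p53-linked genes, 17 were tested, 10 were higher in GCEPB- and 3 lower. Cdkn1b, which encodes p27, measured 145, 143 and 138 CPM in GCEPB- and 46.6, 73.6 and 87.3 CPM in CTX (1.04 ± 0.20). Cdkn1a, which encodes p21, measured 41.0, 50.4 and 60.9 CPM in GCEPB- and 2.72, 6.53 and 22.8 CPM in CTX (2.23 ± 0.85, adjusted p = 0.0366), with CTX replicate 3 far above the other CTX libraries. Its call was lost without GCEPB- replicate 2 or 3 or CTX replicate 1 or 2 (adjusted p = 0.0614, 0.083, 0.13 and 0.121). Gadd45g, a stress and differentiation gene, rose by 2.38 ± 0.36 and Trp53 by 1.42 ± 0.22. Cdkn1c, which encodes p57, rose by 4.87 ± 1.35. The falls were of Rgcc, Gadd45b (-2.06 ± 0.60) and Ccng1 (-0.81 ± 0.26), the last lost with library totals alone (adjusted p = 0.162) and without GCEPB- replicate 3 or CTX replicate 3 (adjusted p = 0.0528 and 0.0888). Rgcc, a cell cycle regulator induced by complement, stood at 6.94, 7.53 and 6.76 CPM in GCEPB- against 855, 667 and 818 CPM in CTX, with no overlap.

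**Figure D2:**
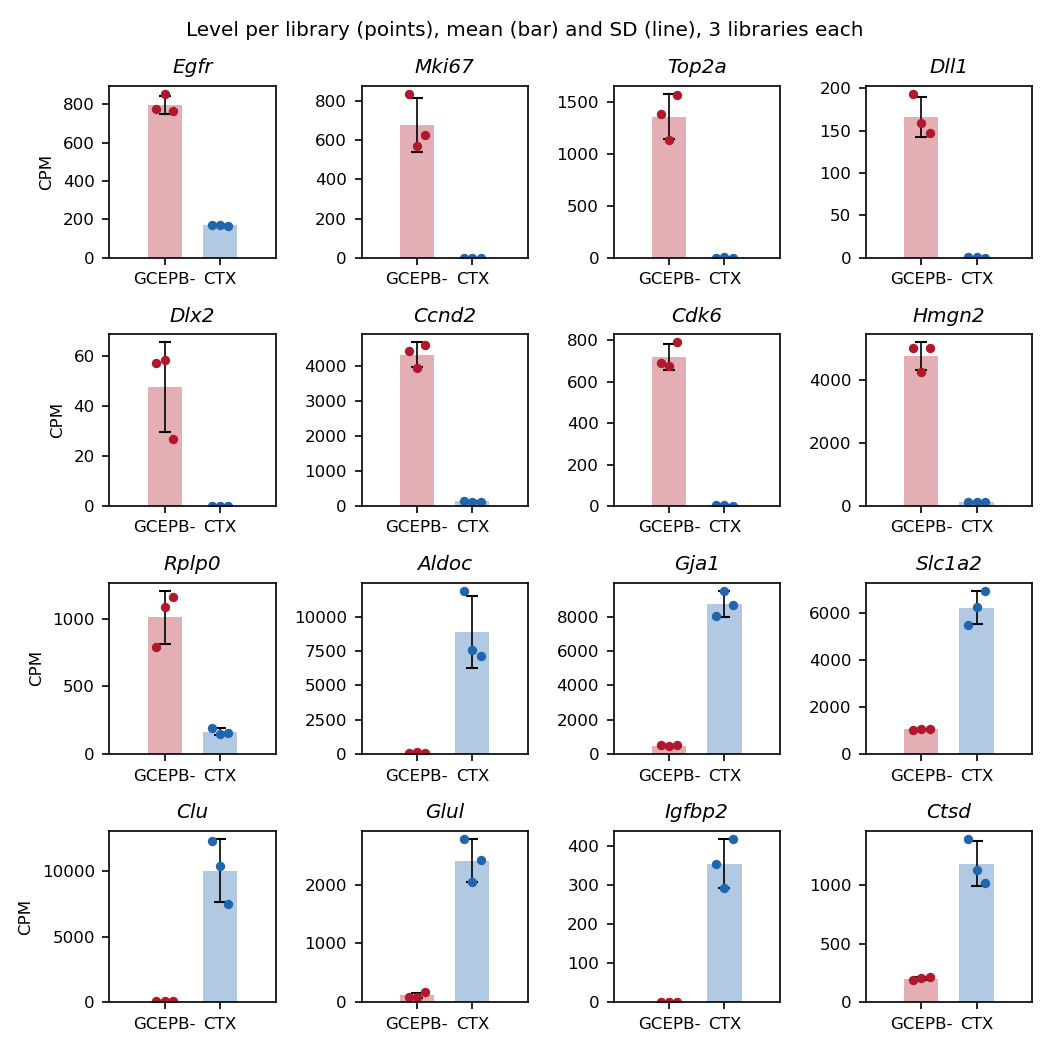
Level of 16 genes in each library (points), with the mean (bars) and SD (lines) over 3 libraries, in CPM on linear axes from 0, with GCEPB- left of CTX in each panel. In every panel all 3 libraries of one population lie apart from all 3 of the other. Over all genes tested, 32.2% were higher and 31.7% lower in GCEPB- without overlap.

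Activated stem cell and transit-amplifying progenitor genes were higher in 24 of 27 cases and lower in 2 (median 5.89, or 5.72 with the 2 genes at 0 in CTX held at their floor). Dll1, a Notch ligand of these progenitors, measured 193, 159 and 147 CPM in GCEPB- and 0.286, 0.768 and 0.0419 CPM in CTX. Mycn rose by 9.75 ± 0.92, while Myc fell (-1.98 ± 0.33), at 2.90 ± 0.468 CPM in GCEPB- and 11.5 ± 1.78 CPM in CTX. The early neuronal factors Sox4, Sox11 and Insm1 rose by 3.98, 6.48 and 8.61. Of the oligodendrocyte lineage factors in the list, Olig1 fell (-2.22 ± 0.52) and Olig2 was not called, at 32.4 ± 6.56 CPM in GCEPB- and 18.8 ± 2.34 CPM in CTX (adjusted p = 0.238).

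Neuroblast genes were higher in 20 of 24 tested cases (25 listed) and lower in 1, with summed levels of 3301 to 3956 CPM in GCEPB- libraries and 2139.6 to 2324 CPM in CTX libraries. Tubb3, a neuronal tubulin, measured 119, 101 and 102 CPM in GCEPB- and 0.501, 0 and 0.0837 CPM in CTX. Dcx, the microtubule protein of migrating neurons, measured 24.3, 9.58 and 15.6 CPM in GCEPB- and 0.215, 0.461 and 0.377 CPM in CTX (5.53 ± 0.77). Stmn2, of growing axons, was at 13.7, 1.06 and 0.845 CPM in GCEPB- and 0.787, 0.307 and 2.68 CPM in CTX and was not called (adjusted p = 0.108). Leaving out GCEPB- replicate 1 turned its change to -0.43, and leaving out CTX replicate 3 gave a call (3.23, adjusted p = 0.0421). GCEPB- replicate 1 was the highest library for Dcx, Stmn2 and Cd24a, and its part in the list's count was measured by leaving it out: 17 members were then higher and 1 lower. The member that fell was Ncam1, an adhesion molecule, at 501 ± 14.6 CPM in GCEPB- and 1694 ± 119 CPM in CTX, where it made up most of the list's sum. Mature neuron genes were low in both populations, with sums of 34.8 to 49.5 CPM in GCEPB- and 26.8 to 33.6 CPM in CTX, 9 of 18 tested, 2 higher (Rbfox3 and Snap25) and 1 lower (Camk2a, with 2 lower without GCEPB- replicate 1).

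Forebrain patterning factors went both ways. Of 19 tested ventral and septal regulators (22 listed), 11 were higher and 4 lower in GCEPB-. Gsx2, a homeobox factor of the lateral ganglionic eminence and adult V-SVZ, had 29.8, 15.4 and 17.2 CPM in GCEPB- and 2 counts in CTX, a ratio of 543-fold (95% counting interval 150 to 4490). Six3 measured 14.1 ± 1.20 CPM in GCEPB- and 0.185 ± 0.134 CPM in CTX. Six3 was higher still in GPB+ cells of the V-SVZ, with a mean of 37.5 CPM, and GCEPB- was lower than GPB+ (log2 fold change -1.41, adjusted p = 0.00118, in a comparison where 49.0% of genes were called in either direction). Among the members that were lower than in CTX were Zic1 and Zic2, zinc finger factors of the dorsal and medial forebrain. Zic2 measured 0.840, 0.0660 and 0.523 CPM in GCEPB- and 14.9, 14.1 and 14.5 CPM in CTX. Of 13 tested pallial regulators (14 listed), 3 were higher and 4 lower. These shares are close to those over all genes tested, and the list median of 0.11 ran from -1.17 to 0.46 over the alternatives, with the opposite sign in 3 of them. Emx2 measured 9.51 ± 2.16 CPM in GCEPB- and 58.4 ± 10.1 CPM in CTX (-2.62 ± 0.34) and Lhx2 fell (-1.18 ± 0.24). The pallial rises were of Tfap2c, which measured 4.95, 2.77 and 1.85 CPM in GCEPB- and 0, 0 and 0 CPM in CTX, of Nr2f2 (2.93 ± 0.72) and of Neurog2, whose call was lost without GCEPB- replicate 1 or 2 or CTX replicate 1, 2 or 3 (adjusted p = 0.0727, 0.0652, 0.0795, 0.0764 and 0.0926).

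Chromatin genes were higher in GCEPB- in 38 of 49 cases and lower in 5 (median 1.72). Hmgn2, a nucleosome-binding protein, measured 5019, 4268 and 5025 CPM in GCEPB- and 115, 111 and 117 CPM in CTX (5.38 ± 0.20). Its level was 2146 CPM in the PDGFRβ-positive, EGFR-positive GCEPB+ cells, lower than in GCEPB- (log2 fold change of GCEPB- over GCEPB+ 1.15, adjusted p = 0.000131, where 11.1% of genes were called). The Polycomb methyltransferase gene Ezh2 rose by 4.36 ± 0.35, and its paralog Ezh1 was not called, at 31.9 ± 8.19 CPM in GCEPB- and 46.9 ± 7.37 CPM in CTX. Dnmt1, the DNA methyltransferase that copies methylation after replication, rose by 4.20 ± 0.27. Dnmt3a, which sets it anew, fell (-0.49 ± 0.18, adjusted p = 0.0322), a call lost with library totals alone (adjusted p = 0.547) and without GCEPB- replicate 2 or 3 or CTX replicate 2 or 3 (adjusted p = 0.124, 0.103, 0.124 and 0.059). The other members that fell were Smarcd3, Hdac11, Hmgn3 and Tet2, the last of them not with library totals alone (adjusted p = 0.0574). Smarcd3, a subunit of the BAF remodeller, measured 4.61 ± 1.33 CPM in GCEPB- and 37.2 ± 2.78 CPM in CTX.

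Genes of protein synthesis were mostly higher in GCEPB-. All 80 tested cytosolic ribosomal protein genes of 81 listed were called higher, at log2 fold changes of 1.29 to 2.93 and a median of 2.09. Their summed level was 27459 to 36075 CPM per GCEPB- library and 6737 to 8207 CPM per CTX library. Rplp0, of the ribosomal stalk, measured 791, 1084 and 1162 CPM in GCEPB- and 196, 146 and 154 CPM in CTX (2.62 ± 0.18), and Rps6 rose by 2.49 ± 0.21. Many of these genes have processed pseudogenes, so single values are uncertain. Ribosome biogenesis genes were higher in 29 of 33 cases and lower in none, led by Nop58 (3.33 ± 0.22) and Dkc1 (2.96 ± 0.26), both of small nucleolar RNA particles. Translation factors and tRNA synthetases were higher in 29 of 41 cases and lower in none, with the elongation factor gene Eef1b2 at 2.40 ± 0.21 and the initiation factor gene Eif3a at 2.29 ± 0.18. The splicing list had 31 of 37 members higher and none lower. Its leading member Hnrnpa1 measured 1209, 985 and 1220.4 CPM in GCEPB- and 58.3, 61.2 and 71.5 CPM in CTX (4.16 ± 0.19).

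Of 28 tubulin, actin and growth cone genes, 22 were higher in GCEPB- and 3 lower. Stmn1, which frees tubulin from microtubules, measured 1503, 1256 and 1654 CPM in GCEPB- and 27.8, 18.2 and 24.9 CPM in CTX (5.96 ± 0.26). Tubulin genes differed among themselves: Tubb5 rose by 4.35 ± 0.17 and Tuba1b by 3.89 ± 0.24, while Tubb2a fell (-3.17 ± 0.22) and Tubb2b fell (-1.18 ± 0.21). Tubulin genes are close in sequence, and their counts may be split between copies. Map1b, a microtubule protein of growing axons, measured 199, 167 and 156 CPM in GCEPB- and 1.14, 3.22 and 0.377 CPM in CTX, and the thymosin genes Tmsb10 and Tmsb4x, which bind actin monomers, rose by 6.52 ± 0.42 and 4.72 ± 0.31.

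**Figure D3:**
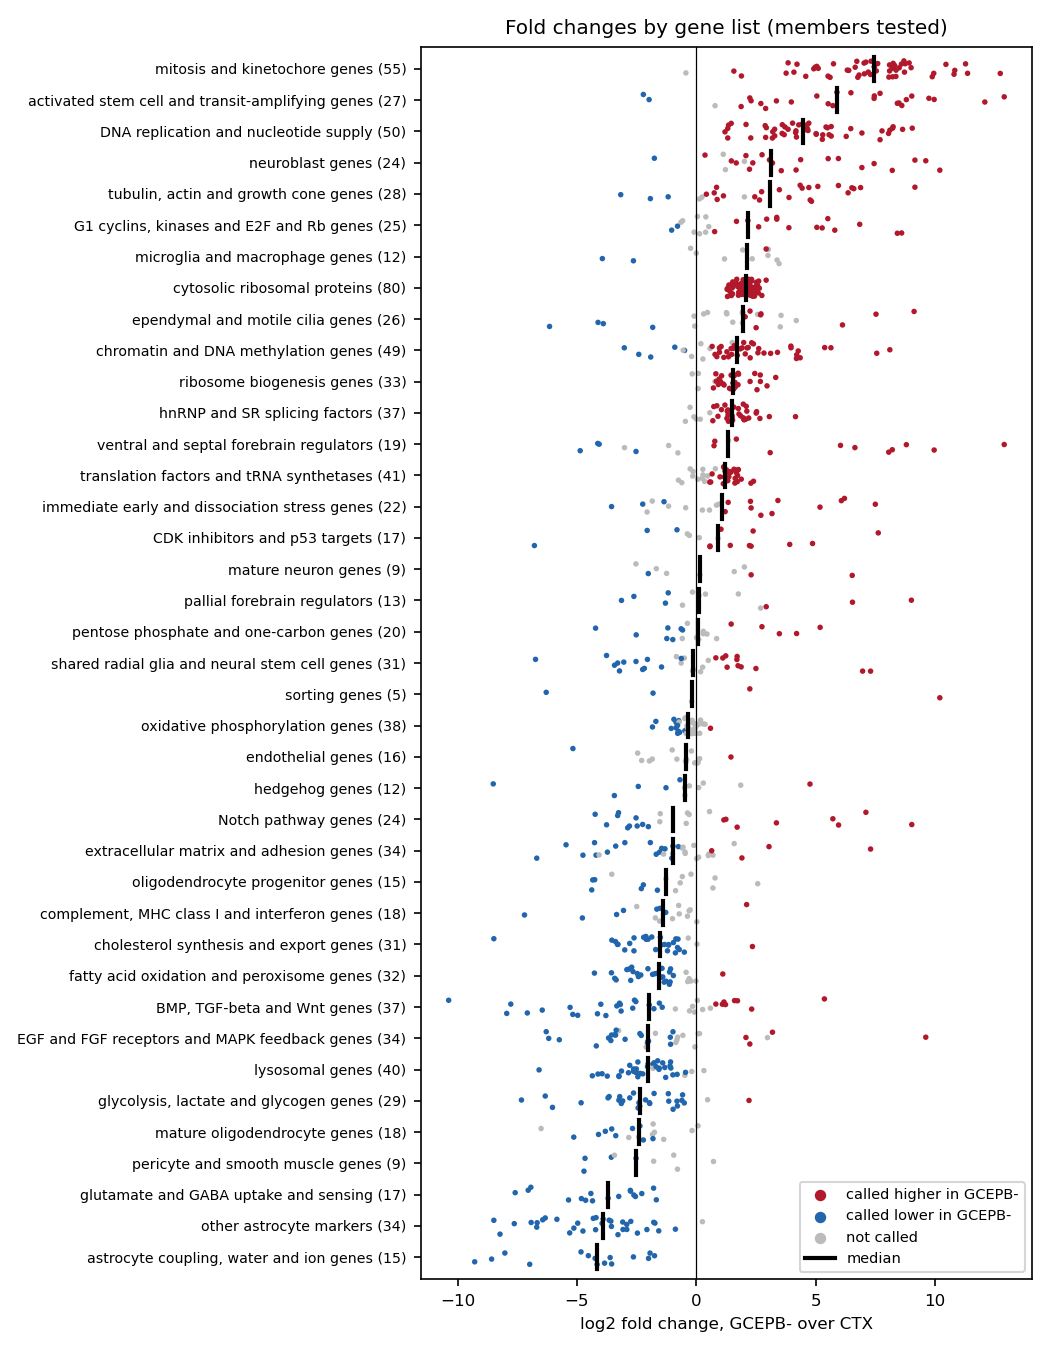
Log2 fold change of each tested member (points) of 39 gene lists, GCEPB- over CTX, with the number of members tested in brackets and the list median as a black bar. Lists run from mitosis and kinetochore genes at the top (median 7.46) to astrocyte coupling, water and ion genes at the bottom (median -4.16), and red and blue points passed an adjusted p under 0.05.

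On the other side of the comparison, the genes of mature astrocyte function were lower in GCEPB- almost without exception. All 15 genes of gap junction coupling, water and ion handling were lower (median -4.16), with summed levels of 2276 to 2451 CPM in GCEPB- libraries and 30986 to 34580.3 CPM in CTX libraries. Gjb6, connexin 30, measured 2.83, 2.77 and 3.58 CPM in GCEPB- and 2057, 1858 and 1870.3 CPM in CTX (-9.29 ± 0.29, adjusted p = 5.28e-12). Gja1, connexin 43, measured 506, 457 and 509 CPM in GCEPB- and 8031, 9521 and 8707 CPM in CTX (-4.16 ± 0.23). Per length of transcript the connexins stood at 2.01 ± 0.684 and 128 ± 8.07 FPKM in GCEPB-, against 657 ± 65.6 and 1969 ± 142 FPKM in CTX. Aqp4, the water channel of astrocyte endfeet, fell (-4.83 ± 0.29). The potassium channel gene Kcnj16 fell (-6.98 ± 0.54), as did its partner Kcnj10, with the smallest change in the list (-1.75 ± 0.15).

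All 17 genes of glutamate and GABA uptake and sensing were lower (median -3.70). The glutamate transporters kept higher counts than most of the list: Slc1a3 measured 1776, 1654 and 1976 CPM in GCEPB- and 12142, 10138 and 10875 CPM in CTX, and Slc1a2 measured 1046, 1080.1 and 1075 CPM in GCEPB- and 5512, 6289 and 6947 CPM in CTX. Their log2 fold changes were -2.62 ± 0.17 and -2.55 ± 0.16. Glul, which turns glutamate into glutamine, measured 83.6, 95.6 and 175 CPM in GCEPB- and 2769, 2036 and 2415 CPM in CTX (-4.35 ± 0.29). The largest falls of the list were of sensing genes, with the NMDA receptor subunit Grin2c at -7.05 ± 0.46 and the GABA-B receptor subunit Gabbr2 at -7.59 ± 0.81.

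Of 34 other astrocyte markers, 33 were lower and none was higher (median -3.93). Clu, a secreted chaperone, measured 82.6, 85.3 and 79.9 CPM in GCEPB- and 12250.4, 10344 and 7457 CPM in CTX (-6.92 ± 0.30). Apoe, the main lipid carrier of astrocytes, measured 2066, 2337 and 1573 CPM in GCEPB- and 23167, 18259 and 16757 CPM in CTX (-3.28 ± 0.21). Aldh1l1, a folate enzyme, and S100b, a calcium-binding protein, fell as well (-4.22 ± 0.36 and -3.95 ± 0.43). Sox9, a glial transcription factor also used by stem cells, fell (-3.07 ± 0.33). The member without a call was Dbi, which binds acyl-CoA, at 350.3 ± 63.7 CPM in GCEPB- and 293 ± 38.1 CPM in CTX (adjusted p = 0.294).

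Genes shared between astrocytes, radial glia and stem cells went both ways: of 31, 11 were higher and 12 lower in GCEPB-. Intermediate filament genes were among the rises, with Nes, nestin, at 46.7, 40.8 and 46.2 CPM in GCEPB- and 0.644, 0 and 0.377 CPM in CTX (6.97 ± 0.78) and Vim at 2.50 ± 0.28. The nuclear factor I genes Nfia, Nfib and Nfix rose by 1.23, 1.70 and 1.88. Of the Id genes, whose products block bHLH factors, falls were called for Id2 (-3.76), Id3 (-3.22) and Id4 (-3.04), while Id1 was not called (adjusted p = 0.47). Sox2, the stem cell factor, measured 143, 106 and 122 CPM in GCEPB- and 171, 155 and 199.7 CPM in CTX and was not called (adjusted p = 0.0755). Thbs4, a thrombospondin of V-SVZ glia, rose to 16.1 ± 2.28 CPM in GCEPB-, against 0.0698 ± 0.121 CPM in CTX. It was higher in every PDGFRβ-positive V-SVZ population, at 65.0 CPM in GCEPB+, 125 CPM in GCPB+ and 112 CPM in GPB+ (log2 fold changes of GCEPB- over them -2.01, -2.95 and -2.80, adjusted p = 0.0015, 7.01e-06 and 1.14e-05).

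The 12 largest falls included genes low in every V-SVZ population and genes high in some of them. Igfbp2, a binding protein of insulin-like growth factors (mm10 chromosome 1, 72824480 to 72852471), measured 0.0884, 0.0660 and 0.161 CPM in GCEPB- and 353, 292 and 417 CPM in CTX (-11.56 ± 0.65). Its mean was below 1 CPM in every V-SVZ population, at 0.102 in GCEPB+, 0.363 in GCPB+ and 0.728 in GPB+. The R-spondin receptor gene Lgr6 had 1 count in GCEPB- and 36.4, 28.6 and 25.2 CPM in CTX, and means under 1 CPM in the other V-SVZ populations too. Cyp27a1, a sterol hydroxylase, had no count in GCEPB- and was at least 856-fold lower than in CTX against the floor of 3 counts over the group (0.0479 CPM), with 1.22 CPM in GPB+. Other falls were high in EGFR-negative V-SVZ cells as well. Kirrel2, an adhesion protein related to nephrin, averaged 81.0 CPM in GPB+, and Fam20a, a helper of a secretory pathway kinase, 141 CPM. The chemokine gene Cxcl14 measured 0.840, 1.98 and 2.37 CPM in GCEPB- and 1150.2, 902 and 941 CPM in CTX and averaged 491 CPM in GPB+. These 3 genes were lower in GCEPB- than in GPB+, at log2 fold changes of -9.89, -8.98 and -8.15 (adjusted p = 1.07e-08, 1.6e-10 and 5.35e-10). The potassium channel subunit gene Kcng4 and Exoc3l4 had no count in GCEPB- and were at least 543-fold and 419-fold lower. The remaining falls were of Ptchd4, Dmp1, the uncoupling protein gene Ucp3 and Gjb6.

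**Figure D4:**
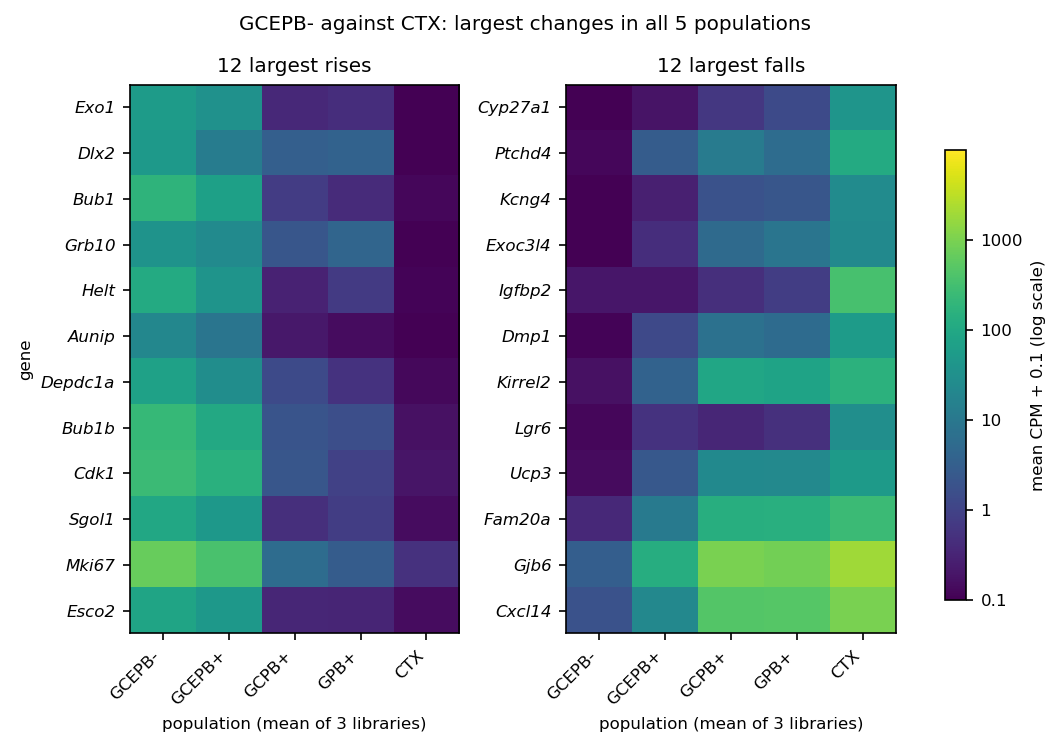
Mean level (CPM + 0.1, log colour scale, n = 3 libraries each) of the 12 largest rises and 12 largest falls in GCEPB- against CTX, shown in all 5 populations. Most rises are also high in GCEPB+, and the falls include genes low in every V-SVZ population (Igfbp2, Lgr6, Cyp27a1) and genes high in GCPB+ and GPB+ (Gjb6, Cxcl14, Fam20a, Kirrel2).

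Energy metabolism genes were lower in GCEPB- along most of the glycolytic pathway. Of 29 tested genes of glycolysis, lactate and glycogen, 27 were lower and 1 was higher (median -2.37). At the aldolase step, Aldoc stood at 33.7 ± 8.29 FPKM and Aldoa at 104 ± 6.35 FPKM in GCEPB-, against 2345 ± 735 and 834 ± 150.1 FPKM in CTX, so the order of the paralogs differed between the populations. In CPM, Aldoa measured 167, 183 and 203 in GCEPB- and 2039.7, 1782 and 1427 in CTX (-3.25 ± 0.18). The phosphofructokinase gene Pfkp fell (-6.03 ± 0.30), and so did the glycogen phosphorylase gene Pygm (-7.33 ± 0.66). At the lactate step, Ldhb and Ldha both fell (-1.97 ± 0.16 and -1.17 ± 0.16). The gene that rose was Hk2, a hexokinase of growing cells, at 17.7 ± 1.42 CPM in GCEPB- and 3.80 ± 1.16 CPM in CTX.

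Of 20 pentose phosphate, serine and folate genes, 5 were higher and 7 lower, and 9 were higher and 4 lower with library totals alone. The reported shares, 25% and 35%, are close to the 25.1% and 26.2% over all genes tested. The list median of 0.06 ran from -0.04 to 0.45 over the alternatives, with the opposite sign in 2 of them. The rises were all of enzymes of one-carbon transfer: Shmt1 (5.19 ± 0.36), Mthfd2 (4.20 ± 0.40), Mthfd1l, Aldh1l2 and Shmt2 (1.46 ± 0.21). Shmt1, the cytosolic serine hydroxymethyltransferase, measured 84.3, 103 and 112 CPM in GCEPB- and 2.65, 2.76 and 2.76 CPM in CTX. Phgdh, the first enzyme of serine synthesis, was among the falls (-0.58 ± 0.20), but not with library totals alone (adjusted p = 0.323) and not without GCEPB- replicate 1 or CTX replicate 1 (adjusted p = 0.082 and 0.147).

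Lipid genes were mostly lower. Fatty acid oxidation and peroxisome genes were lower in 26 of 32 cases and higher in 1 (median -1.56), with the acyl-CoA synthetase gene Acsl6 at -4.27 ± 0.26, the carnitine transferase gene Cpt1a at -2.33 ± 0.29 and Acaa2, of the last step of the cycle, at -2.65 ± 0.20. The member that rose was Fabp7, a fatty acid binding protein of radial glia (1.11 ± 0.31). Cholesterol genes were lower in 28 of 31 cases and higher in 1 (median -1.51). Msmo1, of the later sterol steps, measured 184, 143 and 207 CPM in GCEPB- and 1666, 1738 and 1874 CPM in CTX (-3.30 ± 0.21). The sterol exporter gene Abcg1 rose (2.35 ± 0.63). Of 38 respiratory chain genes, 12 were lower, 1 was higher (Ndufa2, 0.59 ± 0.21) and the median was -0.35, which was 0.01 with library totals alone, where 6 were higher. The rise of Ndufa2 was lost without GCEPB- replicate 3 or CTX replicate 2 (adjusted p = 0.117 and 0.116). Uqcrfs1, of complex III, fell (-1.84 ± 0.24).

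Lysosomal genes were lower in 36 of 40 cases and higher in none (median -2.03). Ctsd, the aspartic cathepsin, measured 191, 207 and 213 CPM in GCEPB- and 1398, 1134 and 1024 CPM in CTX (-2.54 ± 0.17), and Psap, the saposin precursor, fell (-2.51 ± 0.34). Tfeb, a transcription factor of lysosomal genes, measured 1.08 ± 0.154 CPM in GCEPB- and 22.1 ± 2.67 CPM in CTX (-4.36 ± 0.57). Galc, an enzyme that breaks down galactosylceramide, was not called, at 20.3 ± 2.85 CPM in GCEPB- and 16.3 ± 0.624 CPM in CTX.

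**Figure D5:**
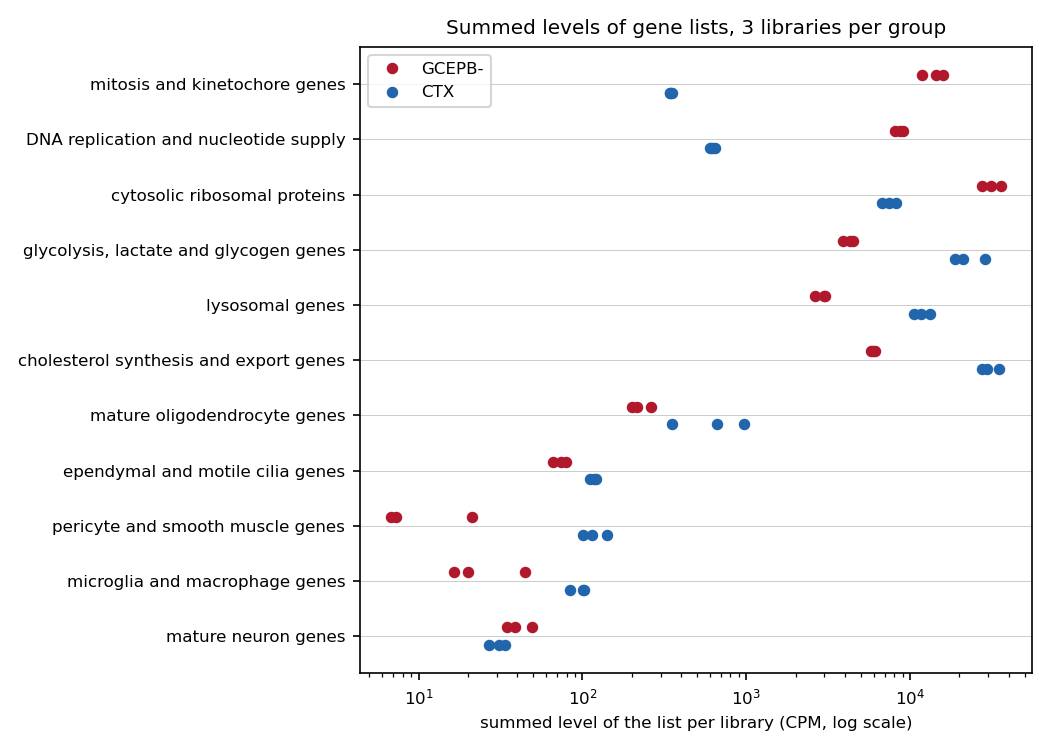
Summed level of 11 gene lists in each library (CPM, log scale), with the 3 GCEPB- libraries in red above the 3 CTX libraries in blue. Replication, mitosis and ribosomal protein lists lie higher in GCEPB-, glycolytic, lysosomal and cholesterol lists lie lower, and the lists of mature oligodendrocytes, ependymal cells, pericytes, microglia and mature neurons sum to 6.74 to 967 CPM over both.

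Matrix and adhesion genes were lower in 16 and higher in 4 of 34 tested cases (36 listed). Of the lecticans, proteoglycans that bind hyaluronan, Bcan and Ncan fell (-5.46 ± 0.32 and -1.54 ± 0.14), and Vcan was not called, at 54.4 ± 5.20 CPM in GCEPB- and 33.5 ± 8.77 CPM in CTX (adjusted p = 0.0571). Vcan was called higher under some alternatives, among them DESeq2 (adjusted p = 0.0412) and each fit on FPKM values, but not when any single library was left out. Sparcl1, which promotes synapse formation, fell (-4.20 ± 0.22). The rises were of Thbs4, the laminin gene Lamb1 (3.05 ± 1.16), the fibronectin gene Fn1 (1.91 ± 0.35) and the integrin gene Itgb1 (0.64 ± 0.21), and 2 of them were called without CTX replicate 2. The call of Lamb1 was lost without GCEPB- replicate 2 or 3 or CTX replicate 1 or 2 (adjusted p = 0.0507, 0.119, 0.0929 and 0.113), and that of Itgb1 without CTX replicate 2 (adjusted p = 0.0809).

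Growth factor signalling genes fell more often than they rose, with 19 lower and 4 higher of 34 tested (35 listed). Besides Egfr, on which the cells were sorted, the rises were of Igf1r (2.08 ± 0.24), the EGFR ligand gene Btc (3.19 ± 1.27) and Igfbpl1, with the call of Btc lost without GCEPB- replicate 1, 2 or 3 or CTX replicate 1 or 2 (adjusted p = 0.0505, 0.166, 0.0567, 0.129 and 0.131). Igfbpl1, a relative of the IGF-binding proteins, measured 7.16, 5.88 and 1.53 CPM in GCEPB- and 0, 0 and 0 CPM in CTX. Other EGFR ligand genes, Hbegf and Tgfa, fell (-5.74 ± 0.52 and -4.19 ± 0.59). FGF receptors fell, with Fgfr3 at 188, 196 and 206 CPM in GCEPB- and 2773, 2624 and 1665 CPM in CTX (-3.58 ± 0.21), Fgfr1 at -3.43 ± 0.27 and Fgfr2 at -2.03 ± 0.17. Feedback genes of the MAPK pathway were also lower, with Spry4 at -2.98 ± 0.38, Spry1 at -3.68 ± 1.16 and Spry2 at -1.08 ± 0.25, as were the ETS factor genes Etv4 (-3.55 ± 0.31) and Etv5 (-1.09 ± 0.22). Etv1, another ETS factor gene of the list, was not called (0.08 ± 0.25, adjusted p = 0.815). The call of Spry1 was lost without GCEPB- replicate 1 or 3 or CTX replicate 2 (adjusted p = 0.0505, 0.0508 and 0.0627).

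Notch pathway genes went both ways, with 8 of 24 higher and 10 lower. Ligands were among the rises: Dll1 as above, Dll4 at 49.4, 65.1 and 57.8 CPM in GCEPB- and 0.501, 0 and 0.628 CPM in CTX (7.11 ± 0.82), Dll3 at 5.72 ± 1.19 and Jag1 at 1.24 ± 0.26. Of the receptors, Notch1 rose (1.16 ± 0.22) and Notch3 fell (-2.53 ± 0.26). Target genes were among the falls: Hes5 measured 63.3, 170.3 and 47.3 CPM in GCEPB- and 1469, 613 and 673 CPM in CTX (-3.30 ± 0.70), and Hes1, Hey1 and Nrarp were lower too (-2.25 ± 0.28, -2.80 ± 0.24 and -2.88 ± 0.30). The Fringe genes, whose enzymes add sugar to Notch, parted, with Mfng up (5.96 ± 1.01) and Lfng and Rfng down (-3.26 ± 0.41 and -2.48 ± 0.51). Hes6, which opposes Hes1, rose by 3.36 ± 0.57.

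Of 37 tested BMP, TGF-beta and Wnt genes (40 listed), 22 were lower and 8 higher. The falls included ligand genes, with Bmp7 at -6.46 ± 0.46, Tgfb2 at -5.18 ± 0.33 and Wnt7a at -4.14 ± 0.31, and also Chrdl1, an antagonist of BMP proteins, at -4.97 ± 0.50. Shared signal transducers were among the rises, with Smad4 at 1.73 ± 0.28 and the receptor gene Tgfbr1 at 1.60 ± 0.30. Pmepa1, a feedback inhibitor of TGF-beta signalling, rose, measuring 29.7, 20.6 and 30.7 CPM in GCEPB- and 0.501, 0.768 and 0.670 CPM in CTX. Of 12 hedgehog genes, 1 rose, the coreceptor gene Cdon (4.77 ± 0.62), with 2 higher without CTX replicate 2. The 5 falls were of Hhatl, Hhip (-3.43 ± 0.83), the coreceptor gene Boc (-2.43 ± 0.28), Gli3 and Gli2, the last lost with library totals alone (adjusted p = 0.204) and without GCEPB- replicate 1 or CTX replicate 2 (adjusted p = 0.0773 and 0.0627). The target Gli1 was not called (adjusted p = 0.151).

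Immediate early and stress genes were higher in 11 of 22 tested cases (25 listed) and lower in 3. Egr1, an early growth response factor, measured 516, 688 and 577 CPM in GCEPB- and 1.86, 7.60 and 0.837 CPM in CTX (7.50 ± 0.70). Fos measured 281, 338 and 413 CPM in GCEPB- and 8.65, 122 and 27.8 CPM in CTX, where replicate 2 stood above the others, and Jun rose by 1.34 ± 0.26. The chaperone gene Hsp90aa1 rose by 3.17 ± 0.24. The falls were of Nr4a1 (-3.55 ± 0.69), Dusp1 (-2.24 ± 0.46) and Jund, the last lost without CTX replicate 3 (adjusted p = 0.0704) and in 2 of the 3 fits on FPKM values (limma adjusted p = 0.0579 and 0.0657). Genes of this list are also known to respond to tissue dissociation, whose part in these values was not tested.

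Cell types outside the gates had low marker levels in both populations. Mature oligodendrocyte genes summed to 199.6 to 261 CPM in GCEPB- and 354 to 967 CPM in CTX, with 9 of 18 lower and none higher. That count was 5 without CTX replicate 1 and 15 without CTX replicate 3, the CTX library with the lowest sum. Mog, a myelin gene, stood at 0.972, 0.528 and 0.403 CPM in GCEPB- and 4.93, 5.37 and 0.168 CPM in CTX and was called without CTX replicate 3 alone (adjusted p = 0.0207, against 0.0775 with it). Oligodendrocyte progenitor genes were lower in 6 of 15 tested cases and in 3 without GCEPB- replicate 1, GCEPB- replicate 3 or CTX replicate 2. Pdgfra, their receptor gene, had 0.663, 3.96 and 1.13 CPM in GCEPB- and 4.22, 21.4 and 2.51 CPM in CTX, and its call was lost without GCEPB- replicate 1 or 3 or CTX replicate 2 (adjusted p = 0.12, 0.114 and 0.452).

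Ependymal genes summed to 66.3 to 79.0 CPM in GCEPB- and 110.5 to 121 CPM in CTX, with 9 higher and 4 lower of 26 tested (5 higher without CTX replicate 1). Mlf1 led the rises, at 11.0, 10.7 and 20.8 CPM in GCEPB- and 0, 0 and 0.0419 CPM in CTX. The ependymal markers Foxj1, Ccdc153 and Fam183b were not called (adjusted p = 0.948, 0.147 and 0.243). Foxj1 stood at 1.14 ± 0.529 CPM in GCEPB- and 1.20 ± 0.699 CPM in CTX. The endothelial list summed to 66.4 to 100.1 CPM in GCEPB- and 1899 to 2891 CPM in CTX. Nearly all of the CTX sum was Slco1c1, a thyroid hormone transporter gene also used by astrocytes, at 68.6 ± 14.7 CPM in GCEPB- and 2474 ± 518 CPM in CTX. The endothelial junction gene Cldn5 stood at 0.928, 0.726 and 0 CPM in GCEPB- and 1.22, 0.921 and 5.86 CPM in CTX, and the member higher in GCEPB-, Itm2a, was lost without GCEPB- replicate 1 or CTX replicate 1 or 2 (adjusted p = 0.332, 0.0536 and 0.132). Pericyte genes summed to 6.74 to 21.1 CPM in GCEPB- and 101 to 142 CPM in CTX, with 4 of 9 tested lower, among them Rgs5, at 7.11, 1.25 and 1.37 CPM in GCEPB- and 47.0, 22.8 and 46.3 CPM in CTX. Microglia genes summed to 16.5 to 44.3 CPM in GCEPB- and 83.7 to 102 CPM in CTX, with 12 of 18 tested. Of these, 1 was higher and 2 were lower. The list median of 2.14 ran against the direction of the sums and had the opposite sign in 4 of the alternatives. The microglia markers Cx3cr1 and Csf1r were not called (adjusted p = 0.179 and 0.926). The member that was higher was Cd68, at 6.36, 7.33 and 8.25 CPM in GCEPB- and 1.64, 0.844 and 0.419 CPM in CTX. P2ry12, a purine receptor gene of microglia, was lower and measured 3.40, 0.132 and 0.845 CPM in GCEPB- and 25.4, 21.9 and 21.8 CPM in CTX. Mrc1, a macrophage receptor gene, had no count in any of the 6 libraries. GCEPB- replicate 1 had the highest pericyte and microglia sums of its group. The part of such cells in the calls was not tested beyond leaving out each library.

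Innate immune genes were mostly low as well, with 7 lower and 1 higher of 18 tested. The rise, of the immunoproteasome gene Psmb9, was lost without GCEPB- replicate 1, 2 or 3 or CTX replicate 1 or 3 (adjusted p = 0.15, 0.0579, 0.0619, 0.152 and 0.156). Ifit3, an interferon-induced gene, measured 0.0442, 0.198 and 0.0403 CPM in GCEPB- and 11.4, 21.0 and 7.03 CPM in CTX (-7.20 ± 0.81), and the MHC class I light chain gene B2m fell (-1.52 ± 0.18).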

How the data were processed

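RNA of sorted cells was amplified with an oligo(dT) kit for very low input, tagged by transposase and read from both ends over 100 bases, per the labels' protocols. The kit does not mark strand, so overlapping antisense genes cannot be told apart. The build mm10 and the tools HTSeq, Cufflinks, TopHat2 2.1 and cutadapt come from the submitters' processing notes, without roles. Annotation and multiple mapping: not given in the sources used here. The authors deposited counts per gene symbol without normalization, and an FPKM table with its symbol and position headers exchanged, for which the row with the highest mean was kept where a symbol recurred. Of 32763 rows of counts, 28 named no gene, with 0.184% to 0.323% of a library's counts, and entered no library size or test.

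Counts of all 15 libraries in 5 groups were fitted with edgeR 4.0.16 (TMM factors of 0.881 to 1.22 in the 6 libraries compared, filterByExpr, quasi-likelihood test, no covariate), with Benjamini-Hochberg adjustment over 16302 genes and a threshold of 0.05. The unadjusted p was under 0.05 for 9211 genes. The SE of a log2 fold change is its size divided by the square root of F, and is unreliable for genes near the floor of 3 counts over a group. Counting intervals are at the 95% level and cover counting error only. Replicates of one population differed by more than sampling noise in a chi-square test of their counts. The members, the lists and the rule for named genes (the 12 largest called changes in each direction with no overlap between the libraries, a mean of at least 20 CPM in the higher population and an established symbol, the anchor members of each list with up to 4 further called members of largest change, and the sorting genes) were chosen with earlier results of these data known, and no list was tested. Other members named in the text were chosen after their values were seen, and some members are not reported here. Alternatives were other size factors, library totals alone, other filters on low counts, DESeq2, limma voom with sample weights, limma on log2(FPKM + 1) and log2(FPKM + 0.1), the 6 libraries alone, the replicate number as a block, and leaving out each library. The code was tested on simulated data.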

Additional observations from a re-analysis of the deposited data

How the results depend on the processing

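The totals of genes higher and lower in GCEPB- than in CTX stayed within 1.5 times the reported counts under the 18 alternatives run. Leaving out 1 library at a time gave 3512 to 3797 genes higher and 3801 to 4007 lower. Library totals alone and FPKM values moved the share of higher genes among those called to 61.6% and to between 58.8% and 59.5%, against 49.0% in the reported fit. The cause was not tested. With no filter on low counts, 3912 of 23055 genes were higher and 4294 lower, and DESeq2 gave 4247 and 4452.

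Same-numbered libraries of GCEPB- and CTX correlated in their deviations from the group means at 0.0304, 0.0463 and 0.0978. Libraries of unlike number ran from -0.0866 to 0.0394, and the only positive value among them was that of CTX replicate 1 with GCEPB- replicate 2. The reported fit did not take the numbers as pairs, and whether they mark a shared batch was not tested. The fit with the replicate block gave 4326 higher and 4479 lower.

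Of 4094 recomputed changes of 229 named genes, 3978 kept their direction and their side of the threshold, 77 lost the call and 33 gained one. The calls of Ccng1, Dnmt3a, E2f5, Gli2 and Phgdh were lost in all 3 fits on FPKM values and that of Jund in 2. Those of Neurog2, Pdgfra and Tet2 were lost in the FPKM fit without a filter. A gene that a fit's filter removed was not recomputed there, so a call not listed as lost need not have held. Psmb9 lost its call with no filter on low counts, Neurog2 with DESeq2 and Pdgfra with library totals alone. The direction turned in 6. Prom1 became 0.16 with library totals alone, 0.1 with FPKM + 1 (filtered or not), 0.11 with FPKM + 0.1 and ran from -0.38 (without CTX replicate 3) to 0.11 (without CTX replicate 1). Stmn2 ran from -0.43 (without GCEPB- replicate 1) to 3.23 (without CTX replicate 3). Genes not called above that passed under some alternatives included Vcan, Olig2, Sox2, Ccnd3 and Dbi. Depth limits genes under the floors of 0.0479 CPM in GCEPB- and 0.0590 CPM in CTX.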

Other observations

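Levels in the other V-SVZ populations are given for 2 of the rises. Egr1 averaged 594 ± 86.9 CPM in GCEPB-, 119 CPM in GCEPB+, 3.10 CPM in GCPB+ and 1.42 CPM in GPB+ (GCEPB- over GCEPB+ 2.32, adjusted p = 0.00787). Rplp0, of the ribosome, averaged 1012 ± 195 CPM in GCEPB-, 882 CPM in GCEPB+, 188 CPM in GCPB+ and 157 CPM in GPB+, beside 165 ± 26.9 CPM in CTX, and was not called against GCEPB+ (GCEPB- over GCEPB+ 0.20, adjusted p = 0.548). The difference between the 2 genes was not tested. The comparisons with GCEPB+ and with CTX share the GCEPB- libraries. Both genes were chosen after their values were seen.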
